A study of Brachypodium distachyon with 35 samples.

Results

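The response to the cytokinin 6-benzylaminopurine (6-BA) was examined for all 96 BdbZIP genes in seedlings of Brachypodium distachyon sampled after 1 h and 6 h. The members were chosen by treatment and not by their values, and they are 2 of the 35 samples of the series. Each was set against CK1, the untreated seedling sample that the labels assign as its control. Transcript levels come from qPCR, and BdGAPD, a glycolytic housekeeping gene, served as the reference. All plants were of the accession Bd21-3, grown on sugar-containing agar, and no transgene or mutation is named in the sources used here. 6-BA was given at 20 µM, and the salicylic acid (SA) samples used for comparison had 1 mM for the same 1 h and 6 h. The labels give an age of 20 days, whereas their treatment protocol speaks of 2-week-old seedlings. Neither a solvent control for CK1 nor the number of pooled plants is given in the sources used here.

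Cytokinins are adenine-derived hormones that promote cell division and delay the senescence of leaves. They are perceived by histidine kinase receptors, and the signal runs through a phosphorelay to response regulators in the nucleus. bZIP proteins are transcription factors that bind DNA through a basic region and pair through a leucine zipper, and members of the family are known for roles in abscisic acid, salicylic acid and stress signalling.

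Each gene had 1 cycle threshold (Ct) per sample, the PCR cycle at which the product is detected, so that each cycle earlier means about 2-fold more transcript. The log2 change was the negative ΔΔCt, so a positive value means more transcript than in CK1. This direction runs opposite to the deposited fold changes, which equal 2 raised to the Ct of the treated sample minus that of CK1 in 93 of 96 genes at 1 h and 92 at 6 h, within 0.1 on the log2 scale. With 1 sample per condition there was no replicate spread and no test, so higher and lower below mean past 2-fold (a log2 change of 1 or more in size). The Ct of BdGAPD was 17.90 in CK1, 17.94 after 1 h and 17.82 after 6 h of 6-BA, so the reference moved little. No marker of a tissue or cell type was among the genes, and fewer cells of a type cannot be told apart from less RNA per cell in whole seedlings. Over the 5 samples used (CK1, 6-BA and SA), 11 genes had a late Ct, meaning 35 or above in any of them.

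After 1 h of 6-BA, 30 genes were higher than in CK1 (31.2% of the 96) and 14 were lower (14.6%), with a median log2 change of 0.32. After 6 h, 23 genes were higher (24.0%) and 22 were lower (22.9%), with a median of -0.055. The direction of this balance rested on the reference. With the gene of median Ct as reference, all changes moved by -0.33 at 1 h and by 0.49 at 6 h, and the counts became 18 higher and 19 lower at 1 h and 33 higher and 16 lower at 6 h. Past 2-fold in 1 direction at both times were 16 higher genes (16.7%) and 12 lower genes (12.5%).

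Among the genes higher at both times, BdbZIP75 (bradi4g02570, on chromosome 4) had the largest value at 6 h. Its Ct was 27.80 in CK1, 26.57 at 1 h and 22.30 at 6 h, which is a log2 change of 1.27 and then of 5.42, or 42.8-fold. BdbZIP1 had the largest change at 1 h, with a Ct of 38.20 in CK1, 32.15 at 1 h and 36.03 at 6 h. Its log2 changes of 6.09 and 2.09 thus start from a control well close to the detection limit. BdbZIP44 had Ct values of 32.68 in CK1, 31.32 at 1 h and 29.53 at 6 h, and its log2 change went from 1.40 to 3.07. Of the TGA-type genes, whose Arabidopsis homologues act in salicylic acid defence and in flower development, BdbZIP24 and BdbZIP81 were in this group. BdbZIP24, a homologue of TGA2 and TGA6, had a Ct of 24.76 in CK1, 22.03 at 1 h and 22.76 at 6 h. Its log2 changes were 2.77 and 1.92, and it was abundant in all samples. BdbZIP81, a homologue of TGA10, had changes of 2.42 and 2.07 from a Ct of 29.90 in CK1. BdbZIP50 had changes of 3.16 and 2.27, but its Ct of 36.16 in CK1 was late. BdbZIP51, which is listed with the same primers, was at 1.67 and -0.66 and so not higher at 6 h.

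The lowest gene was BdbZIP52 (bradi3g00300), with a Ct of 31.43 in CK1, 33.56 at 1 h and 34.71 at 6 h. Its log2 changes were -2.09 and -3.36, so that about 0.097 of the CK1 level was left at 6 h. BdbZIP29, a homologue of Arabidopsis bZIP34, which acts in pollen development, had a Ct of 29.65 in CK1, 32.22 at 1 h and 32.11 at 6 h. Its changes of -2.53 and -2.54 were nearly equal at both times. BdbZIP96, a homologue of the TGA1, TGA3 and TGA7 genes, had changes of -1.88 and -2.09. BdbZIP14 had changes of -1.61 and -2.61 with a Ct of 36.26 at 6 h. BdbZIP88 had changes of -1.87 and -1.65. BdbZIP76 lay exactly at the threshold at 1 h, with -1.0, and at -2.51 at 6 h.

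Many of these values were shared by an untreated sample. CK2, the untreated control that the labels assign to other treatments, was set against CK1 in the same way, and 9 genes were higher (9.38%) and 22 lower (22.9%) in it. BdbZIP29 was at -2.73 in CK2, BdbZIP81 at 2.16, BdbZIP24 at 1.49, BdbZIP1 at 2.79 and BdbZIP88 at -1.42, with no hormone given. CK3 was farther from CK1, with 71 genes higher (74.0%) and 8 lower (8.33%). The direction of both balances rested on the reference. With the median gene, CK2 had 20 genes higher (20.8%) and 14 lower (14.6%), and CK3 had 23 higher (24.0%) and 39 lower (40.6%). With BdGAPD as reference and CK2 in place of CK1, BdbZIP29 changed by 0.20 and 0.19 after 6-BA, BdbZIP81 by 0.26 and -0.09, and BdbZIP1 by 3.30 and -0.70. Whether CK1 or the treatment set these values cannot be told apart with 1 sample each.

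Against both CK1 and CK2, 3 of the 16 higher genes and 1 of the 12 lower genes stayed past 2-fold at both times. The lower gene was BdbZIP52, at -1.51 and -2.78 against CK2. BdbZIP74 had a Ct of 32.82 in CK1 and 31.67 at both times of 6-BA, and its log2 changes were 1.19 and 1.07 against CK1 and 2.27 and 2.15 against CK2. BdbZIP4 had changes of 1.87 and 1.41 against CK1 and of 1.98 and 1.52 against CK2, with CK2 at -0.11 against CK1. BdbZIP15, for which the homology search of the study lists rice OsbZIP50, a gene of the unfolded protein response, had changes of 1.47 and 1.33 against CK1 and of 1.15 and 1.01 against CK2. BdbZIP4 and BdbZIP15 are named here after their values were seen. With the median gene as reference and CK1 as control, BdbZIP74 was at 0.86 at 1 h and so not past 2-fold, whereas the other 3 genes stayed past it at both times. Values with the median gene and CK2 as control are not given here. The median change of CK2 against CK1 was -0.215 with BdGAPD and 0.19 with the median gene, so the calls against CK2 could differ. At 6 h, BdbZIP75 was at 5.01 and BdbZIP44 at 2.53 against CK2, and both were at 0.86 at 1 h. With the 3 untreated samples averaged as control, the medians over all genes turned to -0.38 at 1 h and -0.618 at 6 h, and BdbZIP75 and BdbZIP44 were at -0.47 and -0.89 at 1 h and at 3.68 and 0.78 at 6 h. Against this average BdbZIP4 was at -0.11 and -0.57 and BdbZIP15 at 0.23 and 0.09, so neither stayed past 2-fold. BdbZIP74 was at 1.83 and 1.71 and BdbZIP52 at -1.46 and -2.73.

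**Figure D1:**
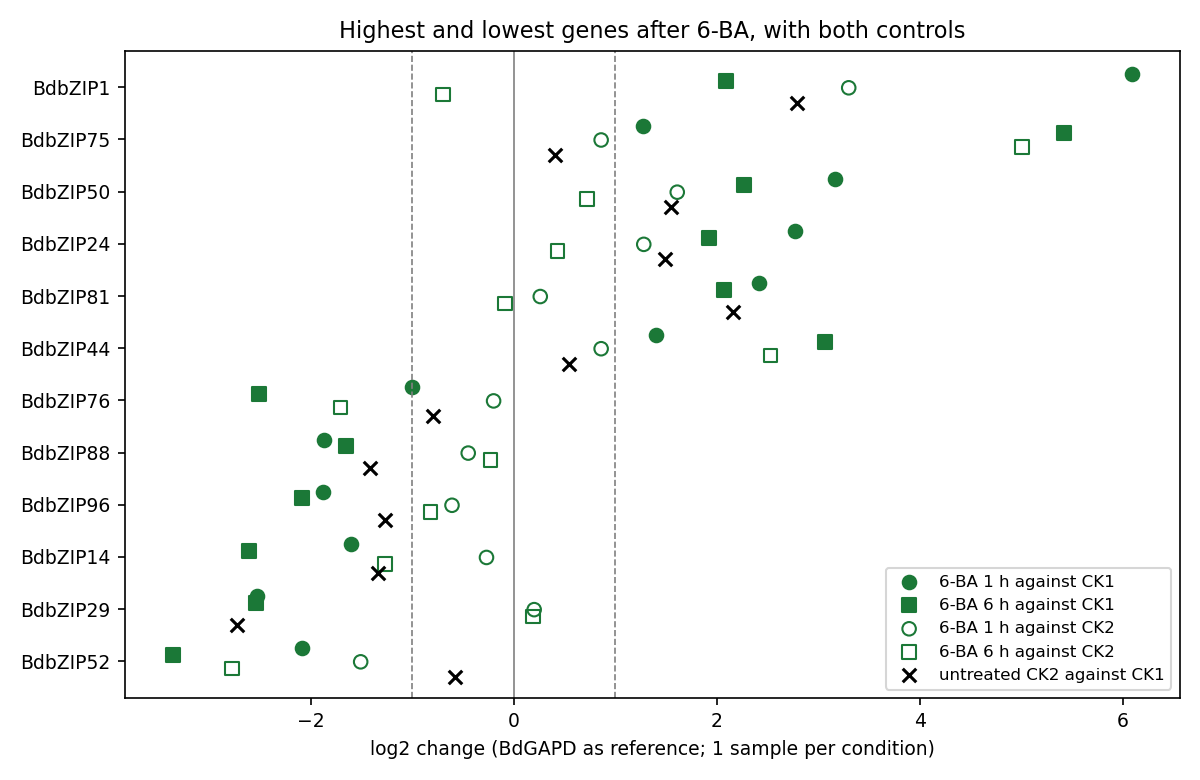
Log2 change (horizontal axis, BdGAPD as reference) of the 6 highest and 6 lowest genes after 6-BA against CK1 (filled) and CK2 (open), with circles for 1 h, squares for 6 h and crosses for untreated CK2 against CK1, 1 sample each; dashed lines mark 2-fold. For BdbZIP29 and BdbZIP81 the cross lies near the filled symbols, whereas for BdbZIP52 and BdbZIP75 it lies between -1 and 1.

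The difference between 6 h and 1 h does not use a control, and it was 1 or more in 8 genes (8.33%) and -1 or less in 25 genes (26.0%), with a median of -0.225. With the median gene as reference every difference moved up by 0.82, and the split became 28 higher and 11 lower. BdbZIP75 had the largest increase from 1 h to 6 h, 4.15 on the log2 scale. BdbZIP60 followed with 3.55, from Ct values of 38.18 at 1 h and 34.51 at 6 h, of which the first is late. BdbZIP63 had an increase of 1.95 at early Ct values of 24.44 and 22.37, and its log2 changes against CK1 were 1.25 and 3.20. BdbZIP44 increased by 1.67 and BdbZIP82 by 1.18, and BdbZIP82 did not pass 2-fold against CK1 at either time. After SA the value at 6 h was above that at 1 h in each of these genes too. The SA changes were 0.29 and 4.62 for BdbZIP75, 3.02 and 4.43 for BdbZIP60 and 1.08 and 2.87 for BdbZIP63. They were 1.84 and 3.23 for BdbZIP44 and -0.71 and 0.79 for BdbZIP82.

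Other genes were at a lower level at 6 h than at 1 h. BdbZIP87 had a Ct of 27.46 in CK1, 24.47 at 1 h and 27.25 at 6 h. Its log2 change was 3.03 at 1 h and 0.13 at 6 h, a difference of -2.90, so the level of 6 h was close to that of CK1. BdbZIP34, a homologue of TGA2, had a difference of -3.31, with changes of 0.33 and -2.98. BdbZIP64, a homologue of Arabidopsis bZIP29 and bZIP30, was the 1 gene past 2-fold in opposite directions at the times, with 1.12 at 1 h and -1.79 at 6 h. Its Ct was 34.20 in CK1, 33.12 at 1 h and 35.91 at 6 h, and against CK2 it was at 1.63 and -1.28. With the median gene as reference it was at 0.79 at 1 h, and with the averaged controls at -0.60. BdbZIP1 had a difference of -4.0 and BdbZIP51 of -2.33. After SA the changes at 1 h and 6 h were 2.89 and 0.14 for BdbZIP87 and -1.28 and -2.09 for BdbZIP34. They were 0.48 and -1.27 for BdbZIP64 and 6.06 and 3.29 for BdbZIP1. BdbZIP51 alone did not fall, with -0.58 and -0.16.

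**Figure D2:**
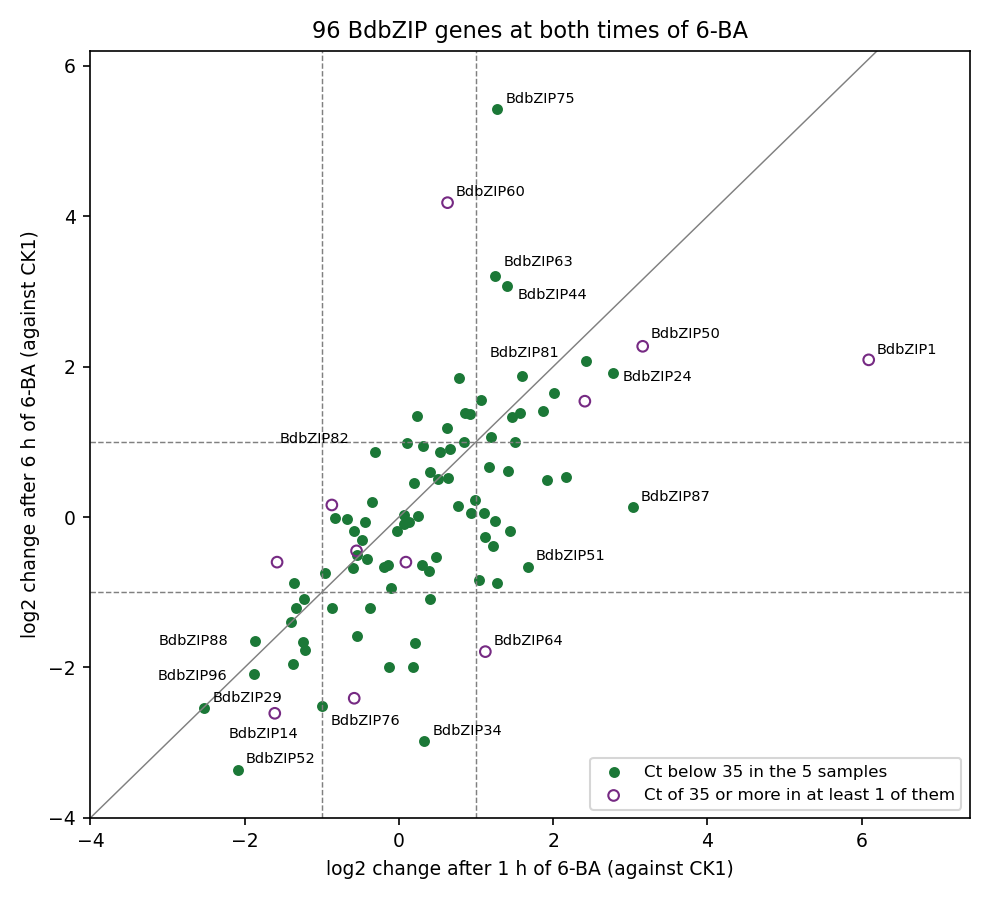
Log2 change of each of the 96 BdbZIP genes after 1 h (horizontal axis) and 6 h (vertical axis) of 6-BA against CK1, 1 sample per time; the solid line marks equal values, dashed lines 2-fold, and open symbols genes with a late Ct. BdbZIP75 and BdbZIP60 lie far above the line, and BdbZIP1, BdbZIP87 and BdbZIP34 far below it.

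Lists of genes were drawn from the homologues that the study names. All 4 RISBZ-type genes, relatives of rice factors that act on seed storage protein promoters, were higher at 1 h, between 1.12 and 2.01 with a median of 1.33, against 31.2% of all genes higher and a median of 0.32. With the median gene as reference 2 of the 4 were higher at 1 h. At 6 h only BdbZIP2, the homologue of RISBZ1, was higher, with 1.65, and the median was 0.28. Against CK2 the list had 3 of 4 genes higher at 1 h and a median of 1.085, beside 24 of all 96 genes and a median of 0.52. BdbZIP55 and BdbZIP56 overlap in their annotated positions. Of the 6 GBF-type genes, relatives of G-box binding factors, 4 were higher and none lower at 1 h, with a median of 1.105. Of these 4, BdbZIP41 and BdbZIP42 share their primers and count as 1 measurement, and with the median gene as reference 0 of the 6 were higher at 1 h. At 6 h BdbZIP53 was the one higher gene, at 1.38. Against CK2 none of the 6 was higher at 1 h and 3 were lower at 6 h, beside 24 higher and 14 lower of all 96 genes. Of the 3 ER-stress-type genes, homologues of Arabidopsis bZIP17 and bZIP28, which are released from membranes when proteins misfold, BdbZIP8 and BdbZIP9 were at 2.17 and 1.92 at 1 h. These 2 share their primers and count as 1 measurement, and at 6 h they were at 0.53 and 0.49. CK2 was at 0.95 and 1.07 against CK1 for this pair. Against CK2 the pair was at 1.22 and 0.85 at 1 h and at -0.42 and -0.58 at 6 h. BdbZIP38, the remaining gene of the list, was at 0.66 and 0.91 against CK1 and so not past 2-fold.

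The TGA-type list of 14 genes was divided, with 3 higher and 2 lower at 1 h and 4 higher and 4 lower at 6 h. Over all genes the shares were 31.2% and 14.6% at 1 h and 24.0% and 22.9% at 6 h, so the counts of the list lay near the background. Its medians were 0.22 and 0.42. BdbZIP5, a homologue of TGA2 and TGA6, had a Ct of 23.90 in CK1, 22.35 at 1 h and 21.95 at 6 h, with changes of 1.59 and 1.87. BdbZIP18, a homologue of PERIANTHIA, which sets floral organ number, had changes of -1.25 and -1.66, and CK2 was at -1.32 against CK1. BdbZIP62 was at -0.13 at 1 h and -1.99 at 6 h, whereas BdbZIP80 reached 1.00 at 6 h and the remaining genes BdbZIP30, BdbZIP36, BdbZIP45, BdbZIP48, BdbZIP49 and BdbZIP85 lay between -0.67 and 0.98 at both times. Of the 8 ABI5/AREB-type genes, relatives of factors that carry the abscisic acid signal, 1 was higher and 1 lower at each time. BdbZIP93 was the higher gene, at 1.06 and 1.55, and BdbZIP72, the homologue of OsbZIP23, was at 0.18 and -2.0.

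The VIP1/RF2a-type list of 13 genes had 3 higher and 3 lower genes at 1 h and 2 higher and 5 lower at 6 h, with medians of 0.40 and -0.64, beside the same background of 31.2% and 14.6% at 1 h and 24.0% and 22.9% at 6 h. Its lower genes included the same-primer pair BdbZIP22 and BdbZIP27, at -1.33 and -1.40 at 1 h. CK2 was at -1.61 and -1.70 for this pair, and against CK2 no gene of the list was lower at 1 h. Over all 96 genes only 1 was lower at 1 h against CK2, so this count lay near the background. The 3 genes of the bZIP34 and bZIP61 type were all below CK1 at both times, with medians of -0.42 and -1.21, and CK2 was lower than CK1 in all 3, with a median of -2.12. BdbZIP11, the homologue of the zinc-deficiency factors bZIP19 and bZIP23, was at 0.92 and 1.37. The 44 genes in no list had 13 higher at each time, and 7 and 10 lower.

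**Figure D3:**
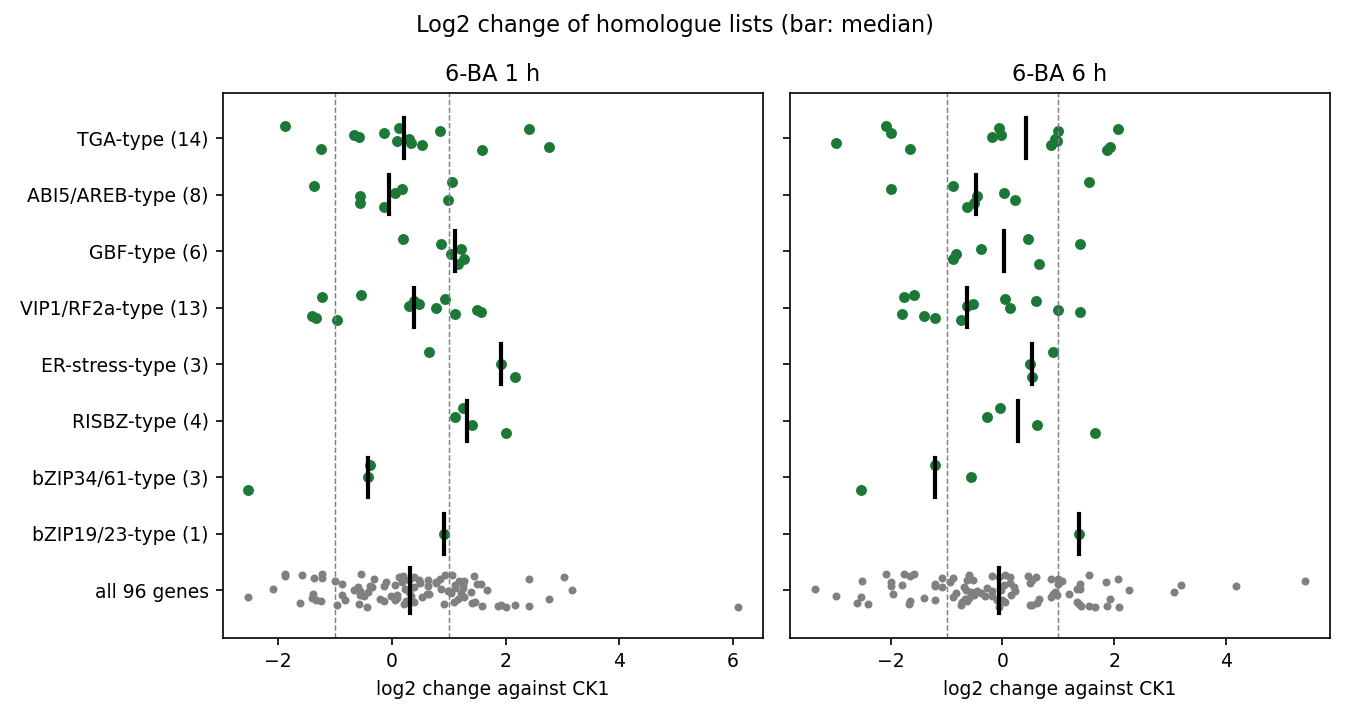
Log2 change against CK1 (horizontal axes) at 1 h and 6 h of 6-BA for the genes of each homologue list, with the number of genes in parentheses, and for all 96 genes; each point is a gene, black bars are medians and dashed lines mark 2-fold. The RISBZ-type median was 1.33 at 1 h and 0.28 at 6 h.

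The 6-BA and SA samples share CK1, so their changes share its error, and the difference between them at the same time cancels it. For SA the counts against CK1 were 22 higher (22.9%) and 21 lower (21.9%) at 1 h and 17 higher (17.7%) and 25 lower (26.0%) at 6 h. Of the 16 genes higher at both times of 6-BA, 12 were also higher at both times of SA. Of the 12 lower genes, 8 were also lower at both times of SA. Over all 96 genes, 13 were higher and 13 lower at both times of SA, and the shared CK1 enters both sets of calls. The difference between 6-BA and SA had a median of 0.24 at 1 h and of 0.025 at 6 h, and a median size of 0.40 and 0.31. It was 1 or more in 10 genes at 1 h (10.4%) and -1 or less in 3 (3.12%). At 6 h it was 1 or more in 4 genes (4.17%) and -1 or less in 5 (5.21%). In all, 19 genes departed at 1 or both times and 77 at neither. The values closest to the threshold were -1.04 for BdbZIP68 inside it and 0.99 for BdbZIP55 outside it at 1 h, and 1.05 for BdbZIP67 inside and -0.98 for BdbZIP96 outside at 6 h.

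Departure at both times in 1 direction was found for 1 gene above SA and 1 below it (1.04% each). BdbZIP6 (bradi1g17335) lies on chromosome 1 from 13859363 to 13861306. Its Ct was 35.55 in CK1, with values of 33.18 and 33.93 after 6-BA and of 35.38 and 36.97 after SA. Its log2 changes were 2.41 and 1.54 for 6-BA and 0.51 and -1.26 for SA, so it lay above SA by 1.90 at 1 h and by 2.80 at 6 h. Of its 5 wells only those of 6-BA were below a Ct of 35. BdbZIP68 (bradi3g41820) had a Ct of 34.56 in CK1, of 33.10 and 33.48 after 6-BA and of 32.36 and 32.43 after SA. It was higher than CK1 in all 4 treated samples, with 1.5 and 1.00 for 6-BA and 2.54 and 2.29 for SA, and it departed from SA by -1.04 and -1.29. BdbZIP68 and BdbZIP67 are both homologues of Arabidopsis bZIP59 and bZIP69, and their annotated positions on chromosome 3 overlap, from 43632222 to 43635160 and from 43632626 to 43635160 (the genome build is not given in the sources used here). BdbZIP67 departed the other way, by 0.97 at 1 h and 1.05 at 6 h, with changes of 1.57 and 1.38 for 6-BA and 0.60 and 0.33 for SA. Against CK2 the changes of BdbZIP68 were 0.54 and 0.04 and those of BdbZIP67 were 0.66 and 0.47.

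At 1 h the highest departure was that of BdbZIP51, 2.25, with a Ct of 32.34 after 6-BA and 34.89 after SA. The lowest was that of BdbZIP60, -2.39, with a Ct of 38.18 after 6-BA and 36.09 after SA, both late. BdbZIP92 departed by -1.65, with changes of -1.58 for 6-BA and 0.07 for SA. Among genes with early Ct, BdbZIP43 and BdbZIP61, both of the bZIP34 and bZIP61 type, were above SA by 1.70 and 1.65. BdbZIP43 had a Ct of 25.46 after 6-BA and 27.46 after SA, against 25.00 in CK1. BdbZIP61 had a Ct of 26.30 after 6-BA and 28.25 after SA, against 25.88 in CK1. Both were thus near CK1 after 1 h of 6-BA and far below it after 1 h of SA, at -2.12 and -2.03, and at 6 h their departures were 0.14 and -0.18. Untreated CK2 was also below CK1 in these genes, at -1.63 and -2.12. Against CK2, BdbZIP43 was at 1.21 and BdbZIP61 at 1.74 after 1 h of 6-BA. Which of the treatments set the departure was not tested. BdbZIP34 was above SA by 1.61, with 0.33 for 6-BA and -1.28 for SA. The other departing genes at 1 h, BdbZIP10, BdbZIP32, BdbZIP41, BdbZIP66 and BdbZIP73, were above SA by 1.06 to 1.16.

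At 6 h the lowest departure was that of BdbZIP52, -1.45, with a Ct of 34.71 after 6-BA and 33.50 after SA. At 1 h its changes in the samples had been equal, -2.09 for 6-BA and -2.08 for SA. BdbZIP17 was above SA by 1.46 at 6 h, with a Ct of 30.04 after 6-BA and 31.74 after SA. BdbZIP37 was above SA by 1.82, with Ct values of 35.74 and 37.80, both late. BdbZIP10 departed in opposite directions, by 1.09 at 1 h and -1.30 at 6 h, with all 5 Ct values between 35.83 and 38.16. BdbZIP1 and BdbZIP84 departed by -1.20 and -1.08. BdbZIP96 missed the threshold at both times by the same difference of -0.98.

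**Figure D4:**
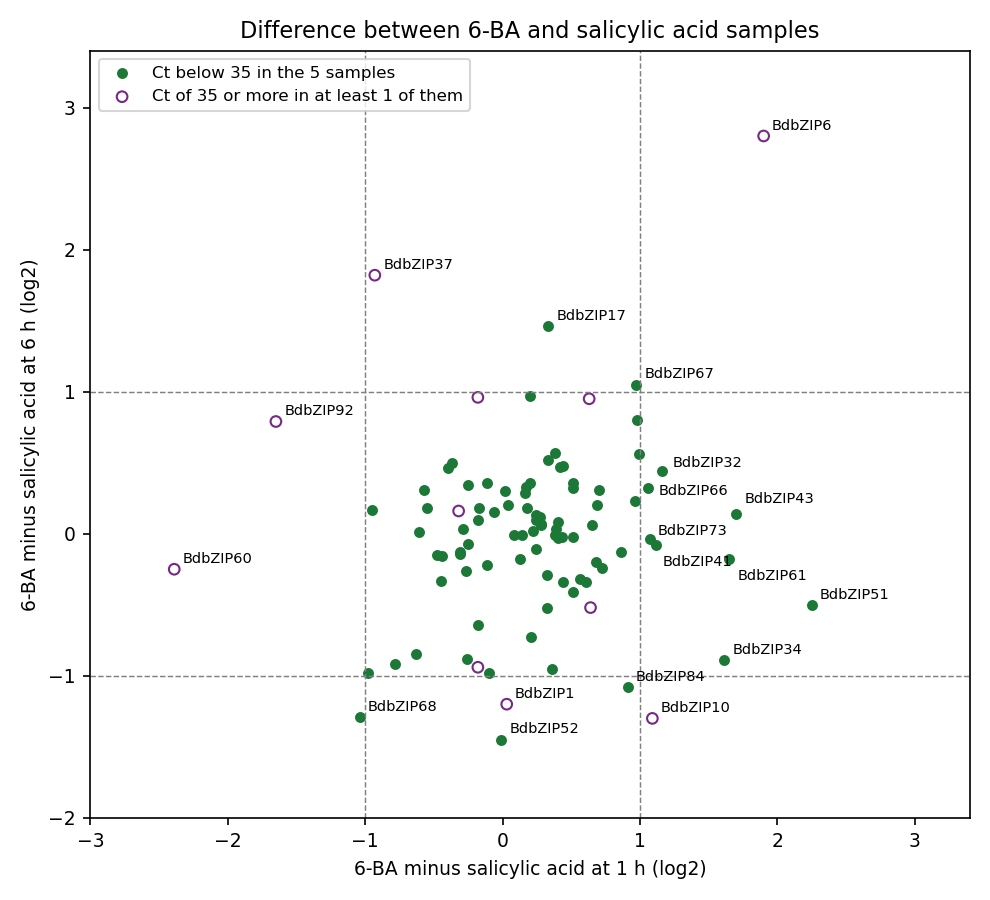
Log2 level after 6-BA minus that after SA at 1 h (horizontal axis) and 6 h (vertical axis) for each of the 96 BdbZIP genes, 1 sample per condition; dashed lines mark a difference of 1, open symbols have a late Ct, and the 19 departing genes are named. BdbZIP6 lies in the upper right corner and BdbZIP68 in the lower left.

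The counts at 1 h depended on the reference. The Ct of BdGAPD was 17.94 after 6-BA and 18.24 after SA, and the median Ct of the 96 genes was 26.93 and 27.94. With the median gene as reference the departures moved by -0.71 at 1 h and 0.11 at 6 h, and the split at 1 h became 2 above and 19 below, whereas with no reference gene it was 18 above and 2 below. The genes that departed in the same direction with either reference were 2 above (BdbZIP6 and BdbZIP51) and 3 below (BdbZIP60, BdbZIP68 and BdbZIP92) at 1 h, and 4 above and 4 below at 6 h. BdbZIP43, at 1.70 with BdGAPD, was at 0.995 with the median gene. Late amplification went with departure. Of the 19 departing genes 6 had a late Ct (31.6%), against 5 of the other 77 (6.49%), and the part of late wells in the departures was not tested.

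A measure of the error of the wells came from 8 pairs of genes that the study lists with identical primers. After 6-BA the changes of a pair differed by a median of 0.215 at 1 h and 0.175 at 6 h, and 7 of 8 pairs were within 1 at each time. The exception was BdbZIP50 and BdbZIP51, which differed by 1.49 and 2.93. The SD of a single log2 change from these pairs was 0.611, or 0.202 without BdbZIP50 and BdbZIP51. For the departure from SA the SD was 0.661, or 0.497 without that pair. At 2 SD, a departure of 1.32, there were 5 genes above and 2 below at 1 h and 3 above and 1 below at 6 h, each out of 96. How many would pass it by error alone was not tested. Of the genes past it, BdbZIP6, BdbZIP37, BdbZIP60 and BdbZIP92 had a late Ct. Among the genes of the same-primer pairs only BdbZIP50 had one, so the SD says little about late wells. Of the departing genes 3 belonged to such a pair, and the partner departed in none of them. BdbZIP51 was at 2.25 and BdbZIP50 at -0.32, BdbZIP41 at 1.12 and BdbZIP42 at -0.63, and BdbZIP32 at 1.16 and BdbZIP33 at 0.65. In BdbZIP78 and BdbZIP79, homologues of VIP1, the departures of 0.96 and 0.61 at 1 h differed by 0.35. BdbZIP48 and BdbZIP49 were at 0.44 and -0.95, and BdbZIP94 and BdbZIP95 at 0.86 and 0.56. This error leaves out the error of BdGAPD and the variation between plants.

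**Figure D5:**
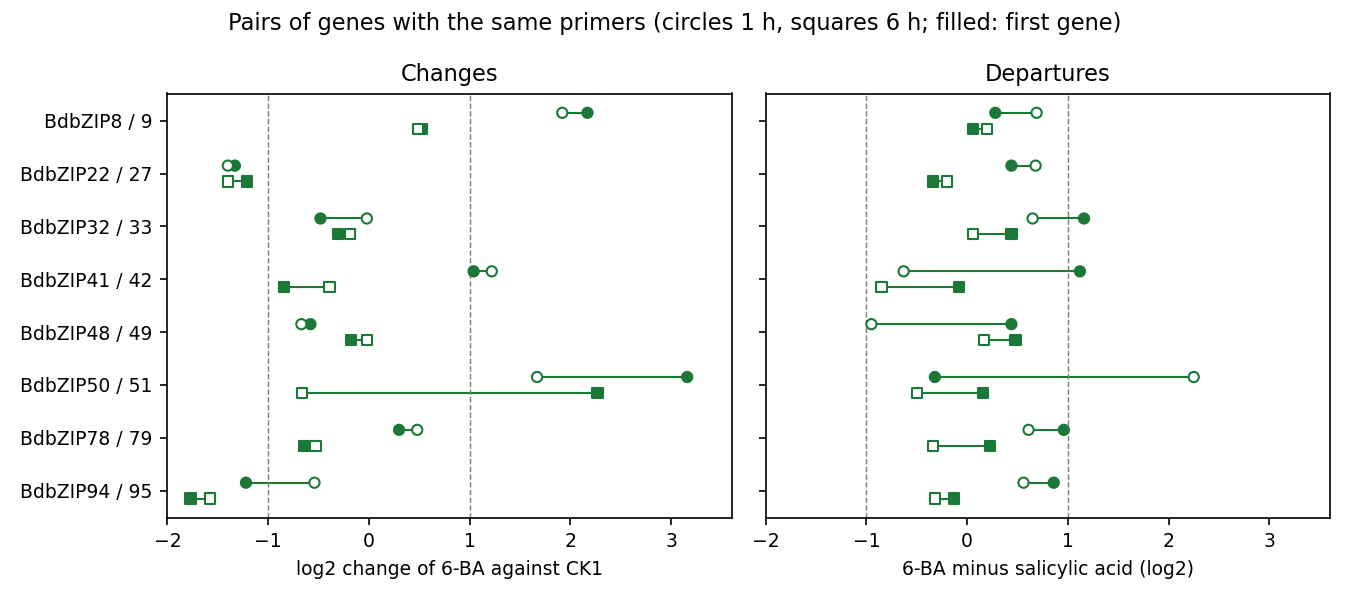
Log2 change after 6-BA against CK1 (left) and departure from SA (right) for 8 pairs of genes with the same primers, joined by lines, with circles for 1 h, squares for 6 h and filled symbols for the gene named first; each point is 1 well and dashed lines mark 1 and -1. BdbZIP50 and BdbZIP51 lie farthest apart, by 2.93 in the change at 6 h.

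Each sample was also compared with the other seedling samples on levels centred on the sample's median gene, which uses neither BdGAPD nor a control. The sample of 6-BA at 6 h was closest to SA at 6 h, with a median absolute difference of 0.305 over the 96 genes, followed by PEG at 6 h (0.345) and H2O2 at 6 h (0.445). The Ct values labelled H2O2 at 6 h are identical to those labelled PEG at 1 h, and which label is right was not settled. The sample of 1 h was closest to MeJA at 1 h (0.345), ABA at 1 h (0.395) and NaCl at 1 h (0.395), then to untreated CK2 (0.475) and SA at 1 h (0.515). CK1 was at 0.865 from the sample of 1 h and 1.01 from that of 6 h. In the number of genes 1 or more apart on this scale, 11 differed between 6-BA and SA at 6 h and 22 at 1 h, whereas 15 differed between 6-BA and MeJA at 1 h. With BdGAPD as reference SA had the fewest genes apart at 1 h, 13, followed by MeJA with 18, NaCl with 21 and ABA with 24. Which sample was closest at 1 h thus rested on the reference.

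On the same scale, the level of 6-BA at 6 h was the highest of 30 seedling samples in 6 genes and the lowest in 2. BdbZIP75 was at 5.32, but the sample labelled H2O2 at 6 h was next at 5.29, against a median of 0.36 in the other samples. BdbZIP63 was at 5.25, with heat at 6 h next at 5.00. BdbZIP5 and BdbZIP45, both homologues of TGA2 and TGA6, were 0.09 and 0.24 above SA at 6 h, the next sample. BdbZIP70 and BdbZIP86 led by 0.02 each. The lowest were BdbZIP12 and BdbZIP72, each just below SA at 6 h. At 1 h no gene was at its highest and BdbZIP83, an ABI5-like gene, was at its lowest. These gaps were all below the SD of 0.611 of the same-primer wells, but those of BdbZIP63 (0.25) and BdbZIP45 (0.24) exceeded the SD of 0.202 without BdbZIP50 and BdbZIP51. These genes were named after their values were seen.

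BdbZIP52, BdbZIP74 and BdbZIP96 were also followed in the other hormone samples, a choice made with earlier results of these data known. Their changes after abscisic acid (ABA) and methyl jasmonate (MeJA) were taken against CK2, as the labels assign. BdbZIP52 was at 0.43 and -1.39 for ABA and at 1.23 and -2.05 for MeJA. BdbZIP74 was at 0.29 and 3.04 for ABA and at 0.91 and 1.81 for MeJA. BdbZIP96 was at -2.19 and 0.92 for ABA and at -1.95 and 0.52 for MeJA. Against the same CK2, BdbZIP96 was at -0.61 and -0.82 after 6-BA and past 2-fold at neither time.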

How the data were processed

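The authors deposited 3 tables of qPCR values for 97 wells and 35 samples: Ct values, which carry no normalization, a normalized table and fold changes. The deposited normalized values and fold changes are ratios, and the fold changes are the authors' own comparisons, used only to join wells to genes and to find their direction. The methods give the formula of ΔΔCt and state that the qPCR was repeated; how repeats were combined into 1 Ct is not given in the sources used here. All 28 fold changes of each of the 96 genes in the supplementary stress table equal those of 1 well. The supplementary tissue table names only 1 well alike, and under its names same-primer genes differed by medians of 1.235 to 13.6 Ct, against 0.255 to 1.375 under the names used.

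Log2 changes were computed from Ct with BdGAPD as reference against CK1. The members, lists and named genes were chosen with earlier results of these data known. Named were the 6 highest and 6 lowest genes at both times, genes with opposite changes, the 5 highest and 5 lowest by time, all genes departing from SA by 1 or more, the TGA-type and same-primer genes, and BdbZIP52, BdbZIP74 and BdbZIP96. The Ct columns of PEG at 1 h and H2O2 at 6 h were identical, so PEG at 1 h was left out. A Ct carries no count, so depth is unknown. The homologues and positions are those of the supplement. Alternatives changed the reference, the control, the genes and the table. The arithmetic was tested on simulated Ct values. Python 3.11.15, numpy 2.4.6, pandas 2.3.3 and matplotlib 3.10.9 were used.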

Additional observations from a re-analysis of the deposited data

Results flagged for a closer look

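BdbZIP6 was past 2-fold in opposite directions in the samples of 6 h, with a log2 change of 1.54 after 6-BA and of -1.26 after SA. BdbZIP64 was past 2-fold in opposite directions at the times of 6-BA, with 1.12 at 1 h and -1.79 at 6 h, but the value at 1 h was 0.79 with the median gene as reference and -0.60 with the averaged controls. Neither difference was tested, since each condition has 1 sample, and both genes reached a Ct of 35 or more.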

How the results depend on the processing

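No paired analysis was possible because each condition has 1 sample. With the median gene as reference, the genes higher at 1 h numbered 18, the medians turned to -0.01 and 0.43, the later differences became 28 higher and 11 lower, and the departures from SA became 2 above and 19 below at 1 h and 7 above at 6 h. With no reference gene the median at 6 h turned to 0.025, and 18 genes were above SA at 1 h, 9 above and 3 below at 6 h, and 3 above and 0 below at both times. With all 3 controls averaged, 8 genes were higher and 22 lower at 1 h (median -0.38), 7 and 36 at 6 h (median -0.618), and 3 and 19 at both times. With CK2 alone, chosen after seeing the data, 1 gene was lower at 1 h and 14 at 6 h, the median at 6 h turned to 0.25, and 6 were higher and 1 lower at both times. With genes of Ct below 35 (85 genes), 1 gene was below SA at 1 h, 2 were above and 3 below at 6 h, and 0 above at both times. In the deposited normalized table, whose ratios run in the direction of the deposited fold changes, 93 genes were above 0 in all 5 samples. A larger ratio there goes with a later Ct, so higher in the next counts means less transcript. By ratio, 15 were higher and 27 lower at 1 h (median -0.238), and the later differences were 20 higher and 9 lower. From SA, 2 were above and 17 below at 1 h, 9 below at 6 h and 3 below at both times. With the sign turned, the counts at 1 h lean as with no reference gene, where 30 genes had more transcript and 15 less (median 0.28). With 1 gene of each same-primer pair (88 genes) the counts stayed within 1.5 times and the medians within 0.25.

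Of 108 changes of the 54 named genes, the median gene as reference reversed none that was past 2-fold but ended 7 such calls at 1 h and 5 at 6 h. At 1 h these were BdbZIP17 (0.77), BdbZIP41 (0.71), BdbZIP42 (0.89), BdbZIP63 (0.92), BdbZIP64 (0.79), BdbZIP74 (0.86) and BdbZIP75 (0.94), and at 6 h BdbZIP22, BdbZIP61 and BdbZIP66 (-0.72 each), BdbZIP27 (-0.92) and BdbZIP84 (-0.60). The median gene also brought 3 changes past 2-fold at 1 h and 5 at 6 h. The average of the controls reversed 14, shifted another 62 and left 32 about the same. At 1 h the reversed genes were BdbZIP42 (-0.36), BdbZIP44 (-0.89), BdbZIP63 (-0.26), BdbZIP64 (-0.60), BdbZIP67 (-0.03), BdbZIP68 (-0.92), BdbZIP75 (-0.47) and BdbZIP76 (0.62). At 6 h they were BdbZIP6 (-0.28), BdbZIP24 (-0.14), BdbZIP50 (-0.69), BdbZIP67 (-0.22), BdbZIP68 (-1.42) and BdbZIP80 (-0.22). The BdGAPD Ct of 15.72 in CK2 and 20.08 in CK3 enters this control. The TGA-type medians with the names of the tissue table were -0.115 and -0.38. The cause of these shifts was not tested.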
